A study of Mus musculus with 5 samples.

Results

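Loss of the homeodomain transcription factors Dlx1 and Dlx2 was examined here in primary neuronal cultures of the medial ganglionic eminence (MGE), as the difference between 1 array of cultures from Dlx1/2 mutant embryos and 1 array of cultures from wild type (WT) embryos. These 2 arrays were chosen by their labels from the 5 mouse arrays of the series, and the 3 arrays of MGE tissue took no part in the comparison. Per the labels, both cultures were grown from the rostral MGE of E15.5 embryos (E, embryonic day), from its ventricular zone together with its subventricular zone. The WT culture carries no named allele, and the mutant culture is labelled only as Dlx1/2 mutant, with neither the alleles nor the strain given. Time in culture, culture medium, and the number of embryos or dishes behind each array are not given in the sources used here. The comparison bears on which genes depend on Dlx1 and Dlx2 once MGE cells grow outside the brain, with neurite growth and migration of particular interest to the study. With 1 array a group there is no replicate check of any difference, so no p-value or standard error is given, and counts of genes past a fixed 2-fold difference are descriptions of these 2 arrays.

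The MGE is the part of the embryonic ventral forebrain that produces most parvalbumin and somatostatin interneurons of the cortex, along with striatal interneurons and basal forebrain cholinergic neurons. Dlx1 and Dlx2 act in its subventricular zone, where they promote the GABAergic programme, in part through Dlx5 and Dlx6, and repress progenitor and oligodendrocyte genes. Newborn interneurons that lack them fail to reach the cortex, and the factors are known to restrain axon and dendrite growth in migrating cells.

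The values are deposited signals, linear intensities with 1 value per probe set, and a signal under 5.35 was set to that floor before log2 was taken, so a fold against a floored value is a lower bound. The mean level of a gene or probe set is here always the mean of its 2 log2 values, written back as a signal, so a gene that is dim in 1 array can be too dim overall although the other array is well above. A gene is represented by its probe set with the highest mean level. Of 18193 named genes, 11381 had a mean level above the pooled median signal of 26.6 and were counted, while 6812 were too dim. The same limit is the intensity filter for probe sets, and statements on several probe sets of a gene cover only those above it. Differences are mutant minus WT on the log2 scale. Array medians were 26.2 in WT and 27.0 in mutant culture, a shift of 0.04 on the log2 scale, and the deposited scaling was kept.

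The cultures carried the markers that their labels call for, with 1 exception. All 8 neuronal markers (Tubb3, Dcx, Stmn2, Gap43, Snap25, Syt1, Ina and Nefl) lay above the pooled median in both arrays, with a summed signal of 11251 in WT and 11495 in mutant culture. All 6 progenitor markers analysed did so too, with sums of 27832 and 32181, so both cultures also held progenitor transcripts. Nkx2-1, the homeodomain factor that defines the MGE, was too dim to be counted, at 16.2 in WT and 12.6 in mutant culture. Of 7 interneuron markers analysed, 7 lay above the pooled median in WT and 4 in mutant culture, and their summed signal was 4439 against 1565. That set holds Dlx1 and Dlx2 themselves. Of the markers of other cell types, the contractile genes Acta2 and Tagln, used as mural markers, were among the bright genes of both cultures, at 13627 and 7110 in WT and 14086 and 6487 in mutant culture.

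Over all genes, 205 of 11381 (1.80%) were at least 2-fold higher and 172 (1.51%) at least 2-fold lower in mutant culture, 377 (3.31%) in all. The most extreme differences leaned downwards: 27 genes (0.237%) were at least 4-fold lower and 18 (0.158%) at least 4-fold higher. Any upward difference, however small, was seen for 53.1% of genes and any downward one for 46.9%, with a median of 0.02. The log2 signals of the 2 cultures had a Pearson r of 0.973 across these genes, which are not independent replicates.

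**Figure D1:**
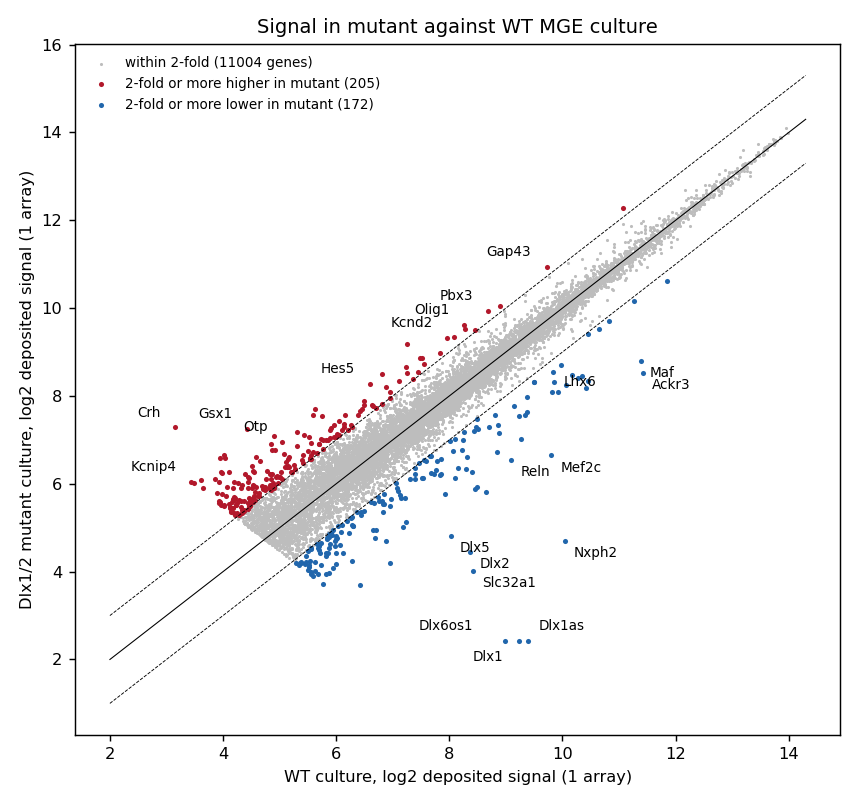
Log2 deposited signal of each gene counted in WT culture (x axis) and in Dlx1/2 mutant culture (y axis), 1 array each. The solid line marks equality and the dashed lines a 2-fold difference; 205 genes lie above the upper dashed line, 172 below the lower one, and Dlx1, Dlx1as and Dlx6os1 sit at the floor in mutant culture.

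How far 2 arrays differ without a change of genotype could be read only from the pair of mutant tissue arrays, the sole replicated group of the series. In that pair 133 of 11102 genes (1.20%) were at least 2-fold apart and 8 (0.0721%) at least 4-fold, and 131 of the 133 had a mean level of 100 or less. Between signals of 100 and 500, 2 of 4964 genes were 2-fold apart in that pair, against 93 of 4942 between the cultures. Above 500 the counts were 0 of 2762 and 22 of 2729. At signals up to 100, 262 of 3710 genes differed by 2-fold or more between the cultures and 131 of 3376 between the tissue arrays, so single dim genes are the least certain of those named here. The tissue pair gives no measure of the spread between separately prepared cultures.

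**Figure D2:**
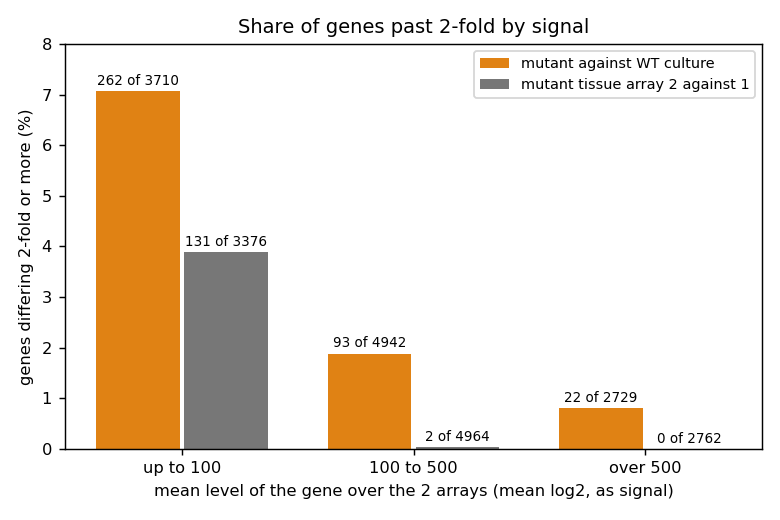
Share of genes (y axis, percent) that differ by 2-fold or more, by the mean level of the gene over the 2 arrays compared (x axis, mean of log2 values written as a signal), for mutant against WT culture and for the 2 mutant tissue arrays. The culture share is 7.06%, 1.88% and 0.806% from dim to bright, and the tissue share 3.88%, 0.0403% and 0.

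Probe sets of the same gene gave a further check on the array measurement, though not on the culture, since they read the same RNA. Among the genes 2-fold lower by their brightest probe set, 60 had another probe set above the intensity filter, and in 57 of these it was lower too, in 30 of them by 2-fold or more. Among the genes 2-fold higher, 45 of 51 had a next brightest probe set that was also higher, 20 of them by 2-fold or more. Over all 5087 genes with such a pair, 60.2% had both probe sets on the same side.

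**Figure D3:**
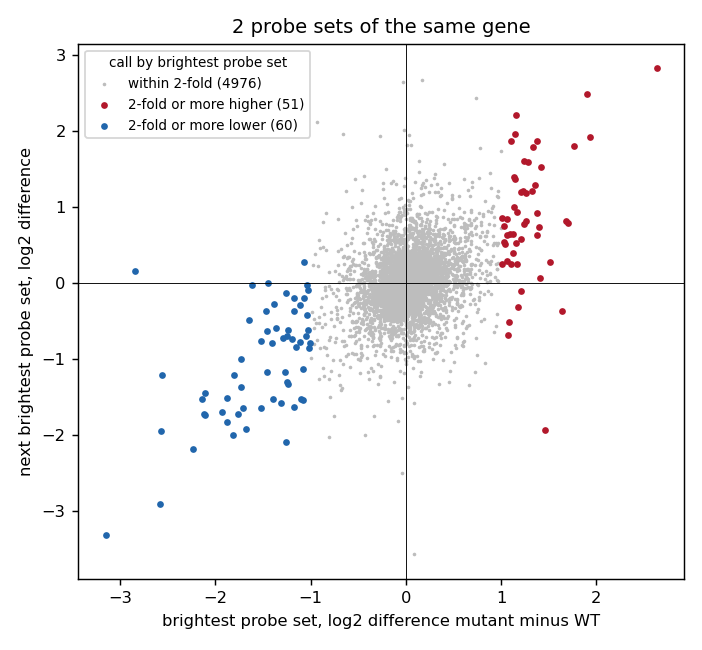
Log2 difference, mutant minus WT culture, by the brightest probe set of a gene (x axis) and by its next brightest above the intensity filter (y axis), for 5087 genes. Of the 60 genes called lower, 57 have both probe sets below 0, and of the 51 called higher, 45 have both above 0.

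Spike-in and housekeeping controls lay close together, while other control probe sets did not all do so. The 18 probe sets of the hybridization spike-ins differed by 0.01 to 0.23 (log2, median 0.11), and the 24 of the poly-A spike-ins by −0.20 to 0.09 (median −0.04). Signal at the 3′ end over the 5′ end of Actb was 1.21 in WT and 1.27 in mutant culture, and of Gapdh 0.714 and 0.722. Of the 3 control probe sets for small-subunit ribosomal RNA, the 5′ one read 7772 in WT and 1906 in mutant culture, while the others read 210 and 188, and 221 and 217. The remaining 13 control probe sets differed by −1.84 to 2.63 (median 0.07).

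Members of the Dlx loci gave 3 of the 4 largest downward differences. Dlx1 read 603 in WT and 1.26 in mutant culture, at least 113-fold lower, and the opposite-strand non-coding transcript Dlx1as read 673 and 2.31, at least 126-fold lower. Dlx2 read 331 and 21.7, a 15.2-fold difference, and unlike Dlx1 it stayed above the floor in mutant culture. These genes define the genotype, and the position of their probe sets against the mutant alleles was not analysed here. Dlx5 and Dlx6, a linked pair of genes that the DLX1 and DLX2 proteins are known to activate, were low as well. Dlx5 read 260 and 28.2, a 9.22-fold difference. Dlx6os1, a non-coding RNA of the Dlx5 and Dlx6 locus, read 508 and 1.53, at least 94.9-fold lower. Dlx6 itself was too dim to be counted, at 26.0 in WT and 2.77 in mutant culture. Dlx3, a family member used mainly in placenta, skin and craniofacial tissue, differed little (30.2 and 24.0, −0.33), and Dlx4 was too dim. In a bulk culture, fewer cells that express a gene and less RNA per cell cannot be told apart, here and in every result that follows.

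Promoter windows are shown for 3 of the 20 genes with the largest downward differences, chosen after their values were seen, to put the letters of a regulatory region beside the values. Each window runs from 250 bases before to 50 after a RefSeq transcription start on GRCm38.p6, 5′ to 3′ on the gene's strand, and capitals mark TAATTA, a palindromic core bound by many homeodomain proteins, DLX proteins among them.
Dlx6os1, start a (chr6:6861634-6861933, minus strand): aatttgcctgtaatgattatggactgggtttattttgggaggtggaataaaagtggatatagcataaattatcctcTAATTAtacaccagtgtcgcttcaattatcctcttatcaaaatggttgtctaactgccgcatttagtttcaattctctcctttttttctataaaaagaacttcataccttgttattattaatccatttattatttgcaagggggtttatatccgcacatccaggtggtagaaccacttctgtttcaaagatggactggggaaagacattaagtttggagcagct
Dlx6os1, start b (chr6:6869484-6869783, minus strand): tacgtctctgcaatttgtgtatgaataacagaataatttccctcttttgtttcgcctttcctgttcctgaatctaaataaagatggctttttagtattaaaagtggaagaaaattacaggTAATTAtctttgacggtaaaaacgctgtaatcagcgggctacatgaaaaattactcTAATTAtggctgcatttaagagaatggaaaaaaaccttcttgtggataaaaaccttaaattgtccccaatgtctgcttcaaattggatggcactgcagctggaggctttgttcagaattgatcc
Mef2c (chr13:83523406-83523705, plus strand): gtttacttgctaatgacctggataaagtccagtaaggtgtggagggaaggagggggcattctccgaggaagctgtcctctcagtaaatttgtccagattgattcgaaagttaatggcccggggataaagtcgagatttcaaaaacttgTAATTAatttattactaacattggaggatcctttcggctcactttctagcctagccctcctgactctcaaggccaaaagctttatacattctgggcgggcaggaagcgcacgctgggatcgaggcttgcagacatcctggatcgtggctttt
Slc32a1 (chr2:158610508-158610807, plus strand): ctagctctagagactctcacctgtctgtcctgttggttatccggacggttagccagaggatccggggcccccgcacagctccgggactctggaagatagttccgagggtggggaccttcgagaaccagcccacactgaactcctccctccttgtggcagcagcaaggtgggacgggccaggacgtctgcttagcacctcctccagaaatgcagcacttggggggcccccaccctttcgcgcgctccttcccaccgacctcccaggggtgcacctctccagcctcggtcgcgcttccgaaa
The windows of Dlx6os1 held TAATTA 1 and 2 times and that of Mef2c 1 time, while the window of Slc32a1 held none. TAATTA is searched on both strands at once, as it reads the same on each. It was found in 8 of 133 genes (6.02%) that were 2-fold lower and had a window, and in 3 of 156 (1.92%) that were 2-fold higher. The share was 280 of 9267 (3.02%) over the genes counted. Of the 20 largest downward differences, 3 of the 15 genes with a window held it. Of the 20 largest upward ones, 1 of 17 did, Hrk. Genes with several starts have several windows and more chances of a match: Mef2c has 3, of which 1 matched. Of all 32851 windows in the table, 5.29% held the letters. A match is a description of the sequence, not a binding site.

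The vesicular GABA transporter Slc32a1, which loads GABA into synaptic vesicles, was 21.2-fold lower in mutant culture (344 against 16.2), far more than the genes of GABA synthesis. Gad1, which makes most GABA in the cell body, read 1599 and 901 (1.78-fold lower), and its other probe set 236 and 123. Gad2, the synaptic form of the enzyme, read 388 and 223 (1.74-fold lower) by its brightest probe set and 67.4 and 23.8 by the other. Both enzymes therefore lay below WT by less than 2-fold at their brightest probe sets. The glutamine transporter gene Slc38a1 differed by −0.36, and Abat, the enzyme that breaks GABA down, by 0.00. Of the 5 list members counted, 4 lay below 0 and 1 was past 2-fold, with a median of −0.80 against 0.02 over all genes.

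In the list of MGE and interneuron transcription factors, 7 of 15 genes counted were at least 2-fold lower in mutant culture and 0 higher. Elmo1, which is not a transcription factor, is 1 of the 7. Over all genes 1.51% were at least 2-fold lower and 1.80% higher. These shares are the background for each count of list members past 2-fold. Mef2c, a MADS-box factor later required in cortical interneurons, read 892 in WT and 100.4 in mutant culture, and all 5 of its probe sets were lower, at −3.15 to −4.93 on the log2 scale. Maf, a bZIP factor of somatostatin and parvalbumin interneurons, read 2667 and 446, a 5.98-fold difference. Its next 3 probe sets differed by −2.58 to −3.27, while a dim probe set read 28.7 and 33.2. Maf and Mef2c were thus both bright in WT culture and low in the mutant by several probe sets. Cux2, a homeodomain factor, read 404 and 56.2 by its brightest probe set, but its next one differed by 0.17, so its direction is uncertain. Zeb2, a zinc finger factor that directs interneurons to the cortex, read 338 and 76.5 (4.41-fold lower), with all 4 probe sets above the filter lower. Lhx6, the LIM-homeodomain factor that specifies these interneurons, read 914 and 374 (2.44-fold lower), and its other probe set 153 and 93.1. Lhx8, a related factor of cholinergic fate, was dim and 3.65-fold lower. Elmo1, a Rac activator put on this list for its part in interneuron migration, read 361 and 179, 2.02-fold lower, although 1 of its 3 probe sets differed by 0.11.

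Other factors counted on the list were within 2-fold of their WT level. St18 (45.8 and 29.7) and Npas1 (54.9 and 38.5) lay below it. Sox6, which acts downstream of Lhx6, read 449 and 481. Satb1, a chromatin organizer of somatostatin interneurons, read 311 and 276. Lmo3 and Lmo4, LIM-only proteins, differed by 0.43 and 0.41, and the homeodomain factor Zfhx3 by 0.69, the highest value in the list. The list's median was −0.63, and 10 of 15 members lay below 0.

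Interneuron peptide and marker genes, the neurexophilins Nxph1 and Nxph2 among them, lay on both sides. Of 11 counted, 4 were at least 2-fold lower and 2 higher (1.51% and 1.80% over all genes), and the median was 0.29, which ranged from −0.44 to 0.29 over the settings tried. Nxph2, a neurexophilin, that is a secreted ligand of alpha-neurexins, read 1058 in WT and 25.9 in mutant culture, 40.9-fold lower and the largest difference outside the Dlx loci. Its relative Nxph1 read 1298 and 353, and all 3 of its probe sets were lower, at −1.82 to −2.36 (log2). The calcium-binding protein gene Calb1 read 718 and 319, and the nociceptin precursor gene Pnoc 178 and 88.4. Higher values were seen for Crh, the gene of corticotropin-releasing hormone, at 8.88 in WT and 156 in mutant culture (17.5-fold), the largest upward difference of all genes counted. Tac1, the substance P precursor gene, read 43.1 and 139. The classical MGE peptides Sst (somatostatin) and Npy (neuropeptide Y) were very bright in both cultures: Sst read 4584 and 6574, and Npy 2693 and 3908, that is 1.43-fold and 1.45-fold higher in the mutant. Sst and Npy thus stood above their WT signal in the mutant, while Pnoc and the opioid precursor gene Penk (98.9 and 73.3) stood below it.

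Genes of interneurons born in the caudal ganglionic eminence showed 1 of 6 members past 2-fold, Reln, the secreted glycoprotein that guides neuronal layering (548 and 93.0, 5.90-fold lower). The orphan nuclear receptor gene Nr2f1 read 870 and 1671 (0.94). The others counted lay between −0.61 (the serotonin receptor gene Htr3a) and 0.52 (Scgn, a calcium-binding protein gene), and the list's median was −0.12, a value that ranged from −0.81 to 0.04 over the settings tried. Of 9 cholinergic genes analysed, 8 were too dim to be counted, Chat among them (the acetylcholine-synthesizing enzyme). Isl1, a LIM-homeodomain factor of cholinergic and striatal neurons, read 221 and 254, but its 2 probe sets above the filter disagreed in direction.

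Striatal projection neuron genes showed no common direction: of 14 counted, 2 were at least 2-fold higher, 1 lower, and the median was 0.04. The TALE homeodomain gene Pbx3 read 410 in WT and 984 in mutant culture, 2.40-fold higher, by a bright probe set. The striatal factor gene Ebf1 read 67.2 and 24.5 (2.75-fold lower) and the zinc finger homeodomain gene Zfhx4 20.2 and 42.2. Pallial genes, which mark glutamatergic neurons of the cortex, were mostly dim, with 9 of 15 not counted. Of the 6 counted, 5 lay above 0 and 1 was past 2-fold, Neurod2 (32.3 and 71.2), and the median was 0.60. The bHLH gene Neurod1 read 21.2 and 37.9, and Emx2, a homeodomain gene of cortical progenitors, 44.1 and 86.0. Of 22 septal, preoptic, diencephalic and hypothalamic genes analysed, 17 were too dim. Among the 5 counted, Otp, a homeodomain factor of neuroendocrine hypothalamus, read 33.0 and 125 (3.78-fold higher), Zic1 164 and 262, and Otx2 213 and 318.

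**Figure D4:**
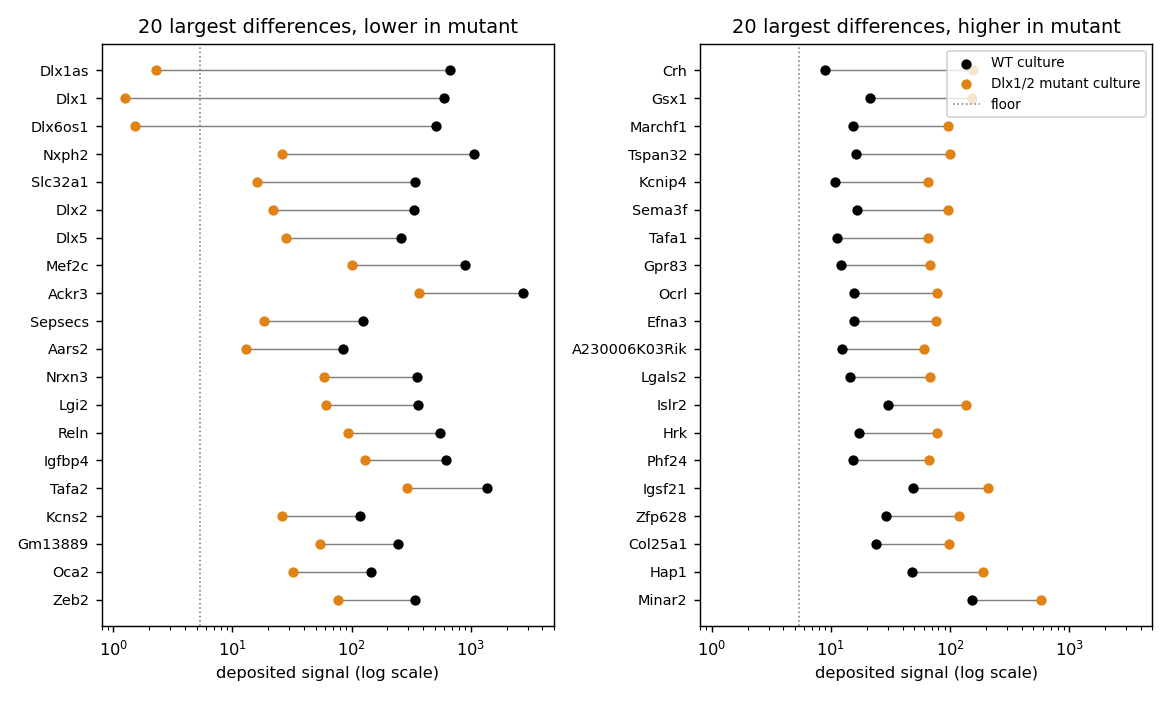
Deposited signal (x axis, log scale) in WT and Dlx1/2 mutant culture, 1 array each, for the 20 largest differences in each direction among genes whose probe sets above the filter agree in direction. The genes lower in mutant culture start from a median signal of 357 in WT, while those higher in mutant culture reach a median of 96.4.

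The 20 largest differences in each direction stood at unlike signal levels. The 20 genes lower in mutant culture had a median of 357 in WT and 30.2 in mutant culture, and 1 of them stayed under 100 in both arrays. Those higher reached a median of 96.4 in mutant culture, and 12 of 20 stayed under 100 in both, in the range where the replicate tissue arrays also differed most. Of the lower 20, 15 rested on a single probe set above the filter, and of the higher 20, 18.

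Besides the genes already given, the lower group held Ackr3, an atypical receptor that takes up the chemokine Cxcl12 and keeps migrating interneurons responsive to it, at 2744 in WT and 371 in mutant culture (7.40-fold lower). Nrxn3, a presynaptic adhesion gene, read 353 and 59.1, with all 3 probe sets above the filter lower. Lgi2, a secreted leucine-rich repeat protein gene, read 361 and 61.0, Igfbp4, which binds insulin-like growth factors, 617 and 131, and Tafa2, a secreted chemokine-like protein gene, 1364 and 292. All 5 probe sets of Igfbp4 above the filter were lower. The modulatory potassium channel subunit gene Kcns2 read 118 and 26.1, Gm13889 244 and 54.5, and Oca2, known as a pigment gene, 144 and 32.2. Of the aminoacyl-tRNA genes, Sepsecs (selenocysteine synthesis) read 124 and 18.4, and Aars2 (the mitochondrial alanyl-tRNA synthetase) 85.3 and 12.9, each by 1 probe set.

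The higher group was led, after Crh, by Gsx1, a homeodomain gene of progenitors in the ganglionic eminences, at 21.5 in WT and 152 in mutant culture (7.10-fold higher). Next came Marchf1, a membrane-bound ubiquitin ligase gene (15.4 and 96.1, both probe sets higher), the tetraspanin gene Tspan32 (16.3 and 100.7) and Kcnip4, an auxiliary subunit gene of A-type potassium channels (10.8 and 65.9). Sema3f, which encodes a repulsive guidance cue for interneurons, read 16.4 and 96.6, and Efna3, an ephrin ligand gene, 15.7 and 76.2. Of these 7, all but Crh, Gsx1 and Tspan32 stayed under a signal of 100 in both arrays. The group further held Tafa1 (11.2 and 64.8), a relative of Tafa2, the receptor gene Gpr83 (12.2 and 67.9), the inositol phosphatase gene Ocrl (4.98-fold higher) and Islr2, a neuronal leucine-rich repeat gene (29.9 and 135). Hrk, which encodes a BH3-only protein of neuronal apoptosis, read 17.3 and 77.5. Igsf21, an adhesion gene of inhibitory synapses, read 49.2 and 207, the transmembrane collagen gene Col25a1 23.8 and 97.3, Hap1, the gene of huntingtin-associated protein, 48.4 and 188, and Minar2, the brightest, 153 and 585. A230006K03Rik, Lgals2, Phf24 and Zfp628 complete the group, at 12.5 to 28.9 in WT and 60.0 to 120 in mutant culture.

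Calls among bright genes leaned downwards: of 2729 genes with a mean level over 500, 22 were past 2-fold, 17 lower and 5 higher. Brighter genes as a whole did not lean: above the pooled 75th percentile, 6862 genes had a median difference of 0.002. The 22 were looked up after their values were seen. Beyond those named above, they were the actin filament protein gene Afap1 (1395 in WT and 323 in mutant culture), the calcineurin regulator gene Rcan2 (1074 and 306), Amph, an endocytosis gene (1145 and 358), Tcim (966 and 274), and the adaptor subunit gene Ap1s2 (3684 and 1564). Also lower were the co-activator gene Cited2 (1821 and 842), Mapk10, the neuronal JNK gene (1603 and 741), and Gm17750 (1405 and 679). Pcdh8, Efnb2, Snap25 and Chl1, lower as well, are given with their lists. The 5 higher were Enc1, an actin-binding gene of the nervous system (2161 and 4990), Pbx3, Gap43, Insm1 and Igfbp5.

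Progenitor genes lay slightly above WT nearly throughout: 23 of 25 counted were above 0, where 53.1% of all genes were, and the median was 0.27. Past 2-fold were 2, Gsx1 and Insm1, a zinc finger gene of basal progenitors and newborn neurons (474 in WT and 1052 in mutant culture, both probe sets higher). Id4, an inhibitor of bHLH factors, read 2149 and 3864 (0.85), with all 3 probe sets higher. Nes, the progenitor filament gene, read 141 and 226, Sox2, the pan-neural progenitor factor gene, 2817 and 3773, and Fabp7, a fatty acid-binding protein gene of radial glia, 11249 and 13558. Gsx2, the relative of Gsx1, read 29.1 and 39.1 (0.42).

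Notch genes lay mostly on the same side, with 16 of 21 above 0 and a median of 0.49. Hes5, a bHLH effector of Notch, was the 1 member past 2-fold, at 96.5 and 310 (3.21-fold higher), by both probe sets. Its relative Hes7, outside the list, was 2.01-fold lower (47.0 and 23.4). The ligand gene Jag1 read 133 and 259 (0.96) and the effector gene Hey1 188 and 364 (0.96), both just short of 2-fold. The ligand genes Dll3 (70.7 and 111) and Dll4 (23.4 and 43.1) and the receptor genes Notch3 (123 and 191) and Notch1 (311 and 396) lay on the same side. Hes1, another effector of the pathway, went the other way (129 and 89.2, −0.54), as did Dner, a neuronal Notch ligand gene (1764 and 1172, −0.59).

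Oligodendrocyte lineage genes held 3 of 12 past 2-fold upwards and 0 downwards, against 1.80% and 1.51% of all genes, with a median of 0.58. Olig1 and Olig2, bHLH factors that specify the lineage, read 306 and 789 (2.58-fold higher) and 89.9 and 222 (2.47-fold higher). Bcan, a proteoglycan gene of precursors and astrocytes, read 184 and 464, and Ptprz1, a receptor phosphatase gene, 509 and 911. The other members lay on both sides within 2-fold. Pdgfra, the growth factor receptor gene of precursors, read 103 and 145, Sox8 27.8 and 43.7, and Lhfpl3 57.8 and 88.0, all above WT. The 2 probe sets of Lhfpl3 above the filter disagreed in direction. Sox10, a factor of committed cells, read 53.9 and 29.1, the proteoglycan gene Cspg4 40.1 and 23.4, and Omg 99.2 and 70.0, all below WT. Of the myelin genes, Mbp read 83.8 and 124 and Cnp 565 and 545, while Mog and Mag were too dim to be counted. The summed signal of the 6 oligodendrocyte markers analysed was 676 in WT and 1332 in mutant culture, and Olig1 and Olig2 are among them. The part of a changed share of such cells in these values was not tested.

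Astrocyte and radial glia genes lay above 0 for 17 of 18 counted (53.1% over all genes), with a median of 0.41. The list had 1 member past 2-fold (1.80% over all genes), the apolipoprotein gene Apoe (272 and 652, 2.40-fold higher). The glutamate transporter gene Slc1a3 read 474 and 697, the glutamine synthetase gene Glul 1013 and 1554, Aldoc 140 and 224, the water channel gene Aqp4 67.5 and 109, and the nuclear factor gene Nfia 377 and 613. Hepacam, a glial adhesion gene, was the 1 member below 0 (288 and 237). Gfap and S100b, markers of mature astrocytes, were too dim to be counted, each below the floor in WT and at 15.9 and 20.4 in mutant culture. The 7 astrocyte markers had a summed signal of 2691 in WT and 3835 in mutant culture.

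**Figure D5:**
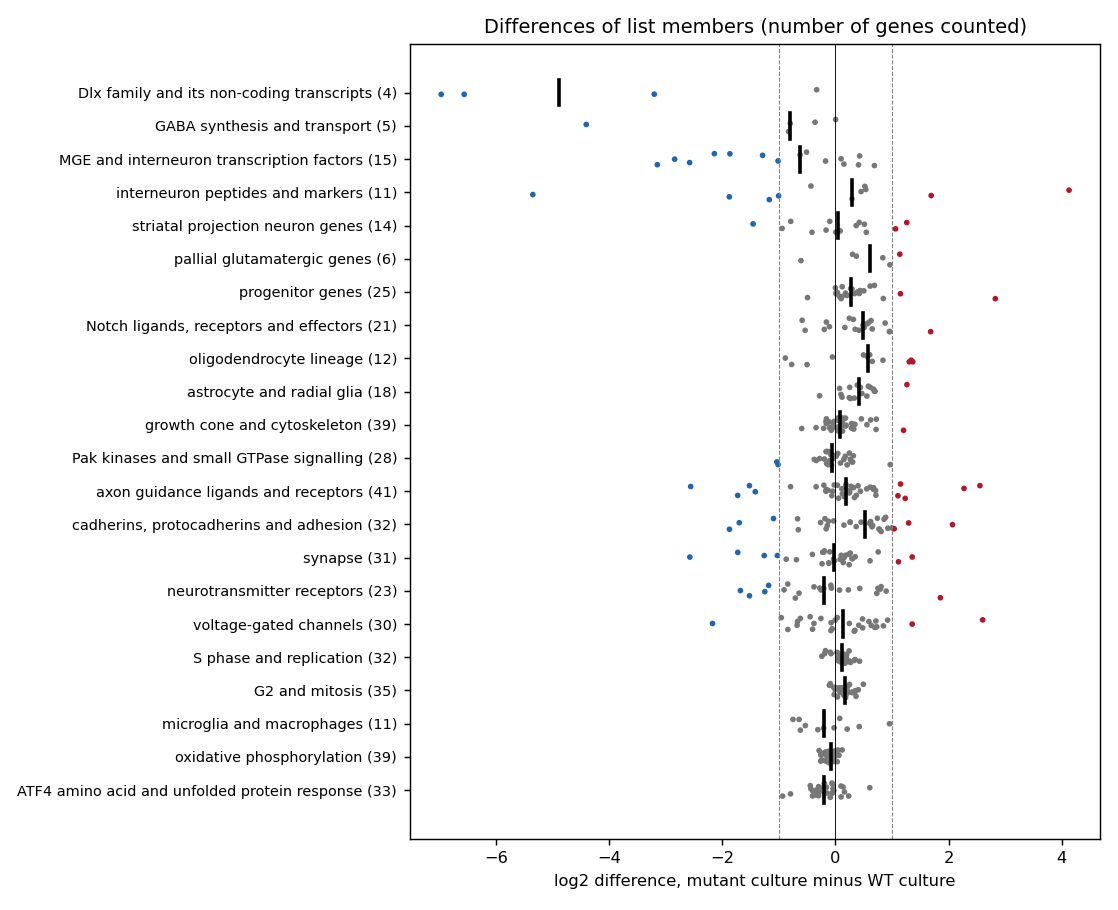
Log2 difference, mutant minus WT culture (x axis), of each counted member of 22 gene lists, with the list's median as a vertical bar and the number of genes counted in brackets. Points past the dashed lines differ by 2-fold or more; the interneuron factor list has 7 of 15 points beyond the lower line, whereas the S phase and G2 and mitosis lists lie wholly within 2-fold.

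Genes of growth cones and the cytoskeleton, listed here because of the study's interest in neurite growth, gave a median of 0.08, with 26 of 39 above 0. The list had 1 member past 2-fold, Gap43, a growth cone membrane protein gene, at 851 in WT and 1961 in mutant culture (2.30-fold higher), by its only probe set above the filter. Gap43 is one of the 22 bright genes past 2-fold. The neurofilament genes Nefl and Nefm read 62.2 and 102 and 28.3 and 46.6 (0.72 each), the stathmin genes Stmn2 and Stmn4 2493 and 3425 and 812 and 1195, and the ankyrin gene Ank3, which organizes the axon initial segment, 313 and 482. Dendritic and axonal microtubule proteins differed little: Map2 read 2153 and 2275, and Mapt 1936 and 2190. Marcks, an actin-linked membrane protein gene, read 6997 and 8534 (0.29), with all 7 probe sets higher. Dclk1, a doublecortin-like kinase gene, was the lowest of the list at −0.60, but 2 of its 7 probe sets were higher. Outside the list, the neurite genes Shtn1 (273 and 130), Plppr1 (267 and 107) and Gas7 (114 and 41.2) were past 2-fold lower. Islr2 and Enc1, also outside it and given above, were past 2-fold higher.

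In the list of Pak kinases and small GTPase signalling 2 of 28 were past 2-fold downwards and 0 upwards, with a median of −0.06. Pak3, which encodes a kinase that links Rac to the actin cytoskeleton, read 645 in WT and 1264 in mutant culture, 1.96-fold higher and so just inside the limit. Its other 3 probe sets read 468 and 1033, 341 and 814, and 139 and 199, all higher and 2 of them by more than 2-fold. No other gene of the list had a higher difference. The lowest were Tiam2, a Rac exchange factor gene (68.3 and 33.3), and Elmo1, given above, and both fell short of 2-fold when the probe sets of a gene were averaged (−0.53 and −0.59).

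Signalling genes of interneuron migration were few. Of 10 counted chemokine, neuregulin and neurotrophin genes, 1 was past 2-fold lower, Ackr3, and 1 higher, Egfr, the epidermal growth factor receptor gene (52.1 and 121), and the median was −0.09. Cxcr4, the signalling receptor of Cxcl12, read 903 and 800 (−0.17), so the 2 receptors of that chemokine differed by −2.89 (Ackr3) and −0.17. The neurotrophin receptor gene Ntrk3 read 96.4 and 171, with all 4 probe sets above the filter higher. Erbb4, the neuregulin receptor of migrating interneurons, was too dim to be counted (10.8 and 12.5). All 4 probe sets of Egfr above the filter were higher, with a difference of 0.69 when averaged.

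Axon guidance genes differed in both directions, with 5 of 41 at least 2-fold higher and 4 lower, against 1.80% and 1.51% of all genes, and a median of 0.19. Higher were the cues Sema3f and Efna3, the Slit receptor gene Robo1 (228 and 507, both probe sets higher), the ephrin receptor gene Ephb1 (138 and 325) and the adhesion receptor gene Dscam (2.15-fold higher). Lower were Reln, the ephrin receptor gene Epha5 (470 and 142, all 4 probe sets lower), the ephrin gene Efnb2 (924 and 322, all 3 lower) and the semaphorin gene Sema3a (186 and 69.6). Class 3 semaphorins thus differed in both directions, Sema3f upwards and Sema3a downwards. Their receptors Nrp1 and Nrp2 read 540 and 682 and 74.0 and 109, each higher by less than 2-fold. Vldlr, a receptor of Reln, read 477 and 275 (−0.79), with all 4 probe sets above the filter lower.

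Cadherins, protocadherins and other adhesion genes had a median of 0.53, with 21 of 32 above 0, 3 at least 2-fold higher and 3 lower. Igsf21 led the higher ones, followed by Chodl, a lectin-domain gene of migrating interneurons (53.3 and 131), and Nfasc, of the axon initial segment (37.2 and 76.5). Others came close: Pcdh17 read 185 and 370, Pcdh11x 114 and 216, Pcdh10 192 and 336 by 6 concordant probe sets, and Cdh6 64.6 and 120. The lower ones were Pcdh8, an activity-linked protocadherin gene (1243 and 339), the contactin gene Cntn3 (101 and 31.1) and Chl1, a close homologue of L1 (2465 and 1153). Matrix, integrin and protease genes were split, 18 of 36 above 0, with 3 past 2-fold higher (Col25a1, Sparcl1 and Thbs2) and 2 lower (Lama2 and Hapln1). Sparcl1, a matricellular gene of glia, read 54.1 and 186. The laminin gene Lama2 read 58.9 and 15.8 and the hyaluronan link protein gene Hapln1 48.0 and 15.0.

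Synaptic genes differed in both directions, with 4 of 31 at least 2-fold lower and 2 higher, against 1.51% and 1.80% of all genes, around a median of −0.02. Lower were Nrxn3, Cplx1, a complexin gene of vesicle fusion (904 and 273, all 3 probe sets lower), Snap25, the SNARE gene (1007 and 420), and Syn2, a synapsin gene (257 and 126). The other probe set of Snap25 differed by −0.13, and 1 of the 4 of Syn2 was higher. The calcium sensor gene Syt1 of the same machinery read 1171 and 640 (−0.87). Higher were the adhesion gene Lrfn5 (60.1 and 154) and Cbln4, a secreted synaptic organizer gene (62.3 and 135).

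The list of neurotransmitter receptor genes had 4 of 23 at least 2-fold lower and 1 higher, against 1.51% and 1.80% of all genes. Its median was −0.21. All 4 lower ones were glutamate receptor genes: the AMPA subunit genes Gria1 (601 and 187) and Gria4 (302 and 127), the metabotropic gene Grm5 (213 and 74.1) and the kainate subunit gene Grik3 (136 and 59.7). For Gria4 the difference was −0.70 after quantile normalization of the 2 arrays, where another of its probe sets was the brightest. The 1 higher was also a glutamate receptor gene, Grm7 (25.3 and 91.5). GABA receptor subunits lay on both sides and within 2-fold, from Gabra2 (117 and 62.1) to Gabrb2 (110 and 204). Of 30 voltage-gated channel genes listed and counted, Kcns2 was past 2-fold lower, and Kcnd2 and Kcnip4 higher. Outside this list, Cacnb4 (228 and 73.0), Cacng5 and Cacng7 were also past 2-fold lower, and Kcnip3 (28.4 and 74.4) higher. Kcnd2, the pore-forming A-type potassium channel gene whose product Kcnip4 binds, read 250 and 639 (2.56-fold higher). All 3 probe sets of Kcnd2 above the filter were higher. The list's median of 0.14 turned to −0.01 with the arrays centred on their medians.

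Genes of the 3 cell cycle lists lay mostly just above WT, and 0 of those counted were past 2-fold. Of 32 S phase and replication genes 27 were above 0 (median 0.12, highest Cdc45, 133 and 179). Of 35 genes of G2 and mitosis 29 were above 0 (median 0.17, highest Nek2, 254 and 358). For Nek2, 1 of its 3 probe sets above the filter was lower. G1 cyclins, Cdks and inhibitors had a median of 0.09, and the Cdk inhibitor genes Cdkn2c and Cdkn2d differed by 0.27 and −0.24. These 3 medians stayed above 0 under every setting tried, at 0.08 to 0.13, 0.12 to 0.18 and 0.05 to 0.11. Outside the lists, E2f8 (66.1 and 138) and Mad1l1 (16.2 and 45.7) were past 2-fold higher, and the cyclin gene Ccna1 (61.8 and 17.0) lower.

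Housekeeping lists were near WT. Of 39 oxidative phosphorylation genes 31 lay below 0, but the median was −0.08 and the range −0.29 to 0.12. Cytosolic ribosomal protein genes had a median of 0.02 that turned to −0.02 with the arrays centred on their medians, and Rps27 was the 1 of 24 past 2-fold (137 and 57.1).

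Lists of other cell types had few members past 2-fold, and most of their genes, though not Acta2 and Tagln, were dim in both cultures. Of 11 microglia and macrophage genes counted 0 were past 2-fold, with a median of −0.21 (Laptm5 highest at 0.96, Cx3cr1 lowest at −0.75), and the 7 defining markers summed to 515 in WT and 475 in mutant culture. Endothelial genes gave 0 of 6 past 2-fold and a median of 0.25, from Slco1c1 at −0.98 and Sox17 at −0.79 to Kdr at 0.70, and the 7 markers summed to 164 and 212, with Pecam1 at the floor in both. Mural and smooth muscle genes gave 1 of 8 past 2-fold, Des (2.42-fold lower), and a median of −0.04. The 6 mural markers summed to 21004 in WT and 20868 in mutant culture, most of it from Acta2 and Tagln. Meningeal and fibroblast genes gave 1 of 12 past 2-fold, Col1a1 (50.3 and 24.6), with a median of 0.05, and the 6 markers summed to 363 and 304. All 8 red blood cell genes analysed were too dim, with Hba-a1 and Alas2 at the floor in both arrays. Of 5 choroid plexus and ependymal genes 0 were past 2-fold (median 0.52, Foxj1 highest at 0.60 and Msx1 lowest at −0.80), while Ttr was too dim. The 6 pallial neuron markers summed to 113 and 147. The interneuron markers, at 4439 and 1565, were further apart as a ratio than any of these sums. They include Dlx1 and Dlx2, which define the genotype, so that ratio is set in part by the genotype.

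The 2 cultures were unlike in sex-linked transcripts. Xist, made from the inactive X chromosome of females, read 318 in WT and 97.2 in mutant culture (3.28-fold lower, both probe sets above the filter lower). The Y-linked genes Kdm5d, Eif2s3y and Uty read 31.8 and 71.6, 140 and 206, and 33.5 and 49.9. All 4 lay above the pooled median in both arrays, with the lower Xist and the higher Y-linked signals in mutant culture. The part of an unequal share of male and female embryos in the other differences was not tested.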

How the data were processed

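RNA was hybridized to Affymetrix mouse expression arrays. The authors deposited 1 linear intensity per probe set for 45101 probe sets. In the deposited values both culture arrays have a mean of 150.0 once the top and bottom 2% of probe sets are left out. Which software made them is unknown here, and detection calls were not part of the analysis.

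Names came from GEO's platform annotation: 34958 had 1 symbol, 932 several (not used) and 9211 none. Of those with 1 symbol that are not controls, 34741 matched RefSeq by Entrez identifier, and no symbol needed an update. The 64 control probe sets were kept apart. Array medians differed by less than 0.1 (log2), so the deposited scaling was kept. Values under the pooled 20th percentile of the 2 culture arrays were raised to that value before taking log2. The probe set with the highest mean stood for a gene, and genes whose mean log2 value lay above the pooled median were counted. A difference of 2-fold or more was a call, with no test, as 1 array a group leaves no residual degrees of freedom. Precision is limited by the number of arrays. The 3 tissue arrays entered only the normalization over 5 arrays, as an alternative, and 2 of them the replicate pair.

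The text names a fixed set of genes (the targeted genes and others of the lineage), the 20 largest differences each way whose probe sets above the filter agree in direction, and up to 4 members past 2-fold, or otherwise the largest 1 or 2, of each list. Some further members, bright genes and genes outside the lists were added after their values were seen. The 48 lists hold 1093 genes, of which 1021 had a named probe set (12 by a synonym) and 819 were counted. The members, lists and rules were chosen with earlier results of these data known. Alternatives changed the scaling, floor, filter, pseudocount and choice of probe set. Steps were tested on simulated data, with Python 3.11.15, numpy 2.4.6 and pandas 2.3.3.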

Additional observations from a re-analysis of the deposited data

How the results depend on the processing

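The counts of 205 genes higher and 172 lower depended most on how dim genes were treated. With no filter on low values they were 1226 and 1097 of 18193 genes, with both arrays required above the pooled median 116 and 118, and with a mean above the pooled 75th percentile 32 and 61. With no floor and log2 of the signal plus 16 they were 103 and 106, of which 96 and 100 were among the main calls. Under 3 other scalings they were 182 to 186 and 186 to 195, with 182 to 185 and 167 to 172 shared, so the share of calls that were higher went from 54.4% to 48.4% at the lowest. Averaging probe sets gave 191 and 159. Under no setting did a named gene past 2-fold change sign. When probe sets were averaged, Tiam2, Elmo1, Egfr, Snap25, Nkd1, Gas1 and Igfbp5 were within 2-fold. So was Gria4 under both quantile normalizations and Ltbp1 under all 3 other scalings. With no floor 9 dim or borderline genes were, Kdm5d, Zfhx4, Neurod2, Des and Col1a1 among them. Medians of several lists near 0 changed sign with the scaling. No paired analysis was possible because each group holds 1 array. Leaving out an array was not possible for the same reason.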

Other observations

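Signalling pathway genes differed in a few members rather than as groups, where 1.80% of all genes were 2-fold higher and 1.51% lower. Of 21 Wnt genes counted 15 lay above 0, with a median of 0.28. Highest of these were the feedback targets Axin2 (34.5 in WT and 63.1 in mutant culture) and Nkd1 (28.9 and 60.6). The other probe set of Nkd1 above the filter was lower. The ligand gene Wnt6, outside the list, read 20.2 and 40.6 (2.01-fold higher). In the sonic hedgehog list 2 of 11 were past 2-fold higher, the effector Gli2 (23.1 and 62.6) and the co-receptor Gas1 (174 and 372, with 1 of 3 probe sets lower), and the median was 0.06. Cdon, another co-receptor gene, read 60.8 and 116, while the brighter Shh and Ptch1 read 1133 and 869 and 1561 and 1525. Among 12 insulin-like growth factor genes Igfbp4 was past 2-fold lower and Igfbp5 higher (352 and 723), so 2 binding proteins of the same family differed in opposite directions. Of 9 retinoid genes, Crabp1, a retinoic acid-binding protein gene, was past 2-fold lower (63.8 and 18.1), and the receptor genes Rxrg (72.6 and 37.7) and Rxra (190 and 106) lay below WT. In the BMP and TGF-beta list Ltbp1 was the 1 of 20 past 2-fold (21.6 and 43.3), while the receptor gene Acvr2a read 499 and 976 and the ligand gene Bmp4 136 and 76.4. Of 17 FGF genes 0 were past 2-fold. There the feedback genes Dusp4 (218 and 110) and Spry2 (284 and 498) lay on opposite sides. The medians of the insulin-like growth factor, retinoid, BMP and FGF lists lay between 0.00 and 0.04, and each was below 0 under at least 1 other scaling.

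Stress and metabolic lists held few large differences. Genes of the ATF4 and unfolded protein response lay below 0 for 27 of 33, with a median of −0.20 and 0 past 2-fold; the stress sensor gene Sesn2 was lowest (93.8 and 49.1), but its 2 probe sets above the filter disagreed in direction. Cholesterol and fatty acid synthesis genes had a median of −0.14 over 29, with Cyp51 at −0.46 and Acaca at 0.76. Immediate early genes had a median of −0.12 over 16, with Myc at −0.75 and Fosl2 at −0.51. Of 17 p53 and cell death genes listed and counted Hrk was the 1 past 2-fold. Bmf, another BH3-only gene but outside that list, was 2.62-fold lower (62.9 and 24.0). The glycolysis and hypoxia list (19 genes, Pdk1 highest at 0.94, Hk1 at 0.50), the heat shock and metallothionein list (15, Mt1 at 0.55, Bag3 at −0.41) and the interferon list (14, Oas1a at 0.67, Ifit2 at 0.66) had 0 past 2-fold and medians of 0.01, 0.03 and 0.08. Those of the first pair were below 0 with the arrays centred on their medians.

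Several genes too dim to be counted, looked up after their values were seen, were far apart in signal. Calb2, the calretinin gene, read 58.5 in WT and 6.66 in mutant culture, and the pallial gene Neurod6 2.65 and 42.7. Vip, an interneuron peptide gene, read 0.589 and 21.2, and the transcription factor genes Ebf3 and Lhx9 9.59 and 34.3 and 10.9 and 32.0.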
